A study of Homo sapiens with 8 samples.

Results

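Interferon signalling is carried by a small set of receptors, kinases and transcription factors, and 9 of its genes are described here: IFNAR1, IFNAR2, IFNGR1, IFNGR2, JAK1, TYK2, STAT2, IRF9 and IRF1. The genes were chosen from a list of pathway names and not by any measured value, although earlier results of these data were known. They are 9 of the 20037 protein-coding genes of the RefSeq gene table that was used. For each gene, every listed peak of accessible chromatin in the gene body and 50 kb either side was taken in each sample.

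Open chromatin had been mapped with ATAC-seq, which uses a transposase to cut and tag accessible DNA, in H1975 and HCC44, both established human lung cancer cell lines with the genotype labelled WT. Cells of each line received either the solvent DMSO or ACBI1, at a dose labelled as 1 mM, and were treated for 96 h, so the study has 4 groups with 2 replicates each. ACBI1 triggers degradation of the SWI/SNF chromatin remodelling subunits SMARCA2, SMARCA4 (the ATP-driven motors) and PBRM1. The title of the series links SMARCA4 to the STING pathway, which leads to type I interferon, and no interferon treatment is labelled in any group. Whether the replicates came from separate cultures is not labelled, so the spread between them may be technical.

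Type I interferons bind a receptor made of IFNAR1 and IFNAR2, and interferon gamma binds one made of IFNGR1 and IFNGR2. The kinase JAK1 sits on both receptors and TYK2 on that of type I interferons, and these kinases phosphorylate STAT proteins. STAT2 and IRF9 belong to the complex ISGF3, which binds interferon-stimulated response elements, whereas IRF1 is itself induced by interferon gamma through a gamma-activated site and then acts as a transcription factor.

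Promoter sequences from RefSeq (GRCh38.p14) were listed for 8 of the 9 genes, each running from 250 bases before the start to 50 bases from it on. The first pair is shown because it holds the only matches to a gamma-activated site, TTCNNNGAA, among the member promoters listed; the match is in capitals. The IRF1 promoter lies at chr5:132490724-132491023 on the minus strand and that of IRF9 at chr14:24161015-24161314 on the plus strand. The other pair shows the starts whose peaks had the highest and lowest median rank among the genes, STAT2 at chr12:56360058-56360357 on the minus strand and IFNGR2 at chr21:33403163-33403462 on the plus strand, with no match in capitals.
IRF1: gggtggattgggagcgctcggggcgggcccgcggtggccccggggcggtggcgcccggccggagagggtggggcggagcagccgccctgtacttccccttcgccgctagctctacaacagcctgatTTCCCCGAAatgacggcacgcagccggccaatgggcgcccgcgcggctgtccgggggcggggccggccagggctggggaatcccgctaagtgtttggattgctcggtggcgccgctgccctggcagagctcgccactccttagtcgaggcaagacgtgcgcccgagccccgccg
IRF9: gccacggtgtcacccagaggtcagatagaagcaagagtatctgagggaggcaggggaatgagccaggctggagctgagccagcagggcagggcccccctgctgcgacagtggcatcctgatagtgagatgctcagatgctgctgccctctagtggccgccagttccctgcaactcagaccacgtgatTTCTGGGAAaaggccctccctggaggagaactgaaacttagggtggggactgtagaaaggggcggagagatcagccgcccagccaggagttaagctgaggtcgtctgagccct
STAT2: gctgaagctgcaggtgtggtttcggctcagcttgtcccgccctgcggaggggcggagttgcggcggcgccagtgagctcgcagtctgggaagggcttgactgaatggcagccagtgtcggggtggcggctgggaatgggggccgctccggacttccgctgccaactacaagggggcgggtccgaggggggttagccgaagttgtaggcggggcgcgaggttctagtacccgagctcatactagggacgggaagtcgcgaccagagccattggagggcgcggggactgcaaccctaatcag
IFNGR2: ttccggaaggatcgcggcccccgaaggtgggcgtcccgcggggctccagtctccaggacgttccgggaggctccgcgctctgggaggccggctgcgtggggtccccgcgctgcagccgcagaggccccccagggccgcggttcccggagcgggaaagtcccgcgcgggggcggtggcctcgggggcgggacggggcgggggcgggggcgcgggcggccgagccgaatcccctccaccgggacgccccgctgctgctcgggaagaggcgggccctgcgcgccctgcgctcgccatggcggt

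In IRF1 the match read TTCCCCGAA, at positions −124 to −116 counted from the start, and in IRF9 it read TTCTGGGAA, at −63 to −55. Both matches lay inside the gene's own start peak in 8 of 8 samples. Over both strands, 6.79% of 22199 RefSeq promoters hold TTCNNNGAA, 7.09% hold the core of the interferon-stimulated response element, GAAANNGAA, and 6.15% hold the AP-1 motif TGANTCA. Neither of the last 2 was found in any member promoter listed. The promoters also differed in base composition. The IFNGR2 promoter is 80% G or C with 44 CpG dinucleotides and that of IRF1 73.7% with 36, against medians of 62.3% and 21 over all promoters. The IRF9 promoter has 7 CpG in 60% G or C, and that of STAT2 has 25 in 66.3%.

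The deposited data are 1 list of peaks per sample, without read numbers, and sequencing depth is therefore unknown. The lists held 41027 to 50347 peaks with DMSO and 22133 to 27682 with ACBI1, and a missing peak is not a measurement of closed chromatin. With ACBI1 the number of peaks away from gene starts was lower across the whole genome, with log2 changes of −1.17 in H1975 and −1.38 in HCC44, while the number at gene starts changed by −0.058 and −0.12. Cell type markers were read within 1 kb of the start, or of either end of the gene where no start was listed, as for EPCAM, KRT18, KRT19, COL1A1, SFTPC and both endothelial markers. Such peaks were found in all 8 samples for 4 of 5 epithelial and 3 of 3 mesenchymal markers. Of the leukocyte markers, CD14 had one in all 8 and PTPRC had none, and both endothelial markers had none. Among lung markers, SFTPB had none, SFTPC had one in all 8, and NKX2-1 had one in 4 of 4 H1975 and 1 of 4 HCC44 samples.

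Every one of the 9 genes had a peak within 1 kb of its start in all 8 samples, and with the second start peak inside JAK1 each sample held 10 such peaks. In both lines, 9 of 9 genes kept their start peak in both ACBI1 samples. Over all genes with a start peak in both DMSO samples, 96.4% kept it in H1975 and 94.0% in HCC44, and 56.7% of 15843 genes had one in every sample. What differed between treatments was the number of peaks in the surroundings, as the maps of the 9 genes show.

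**Figure D1:**
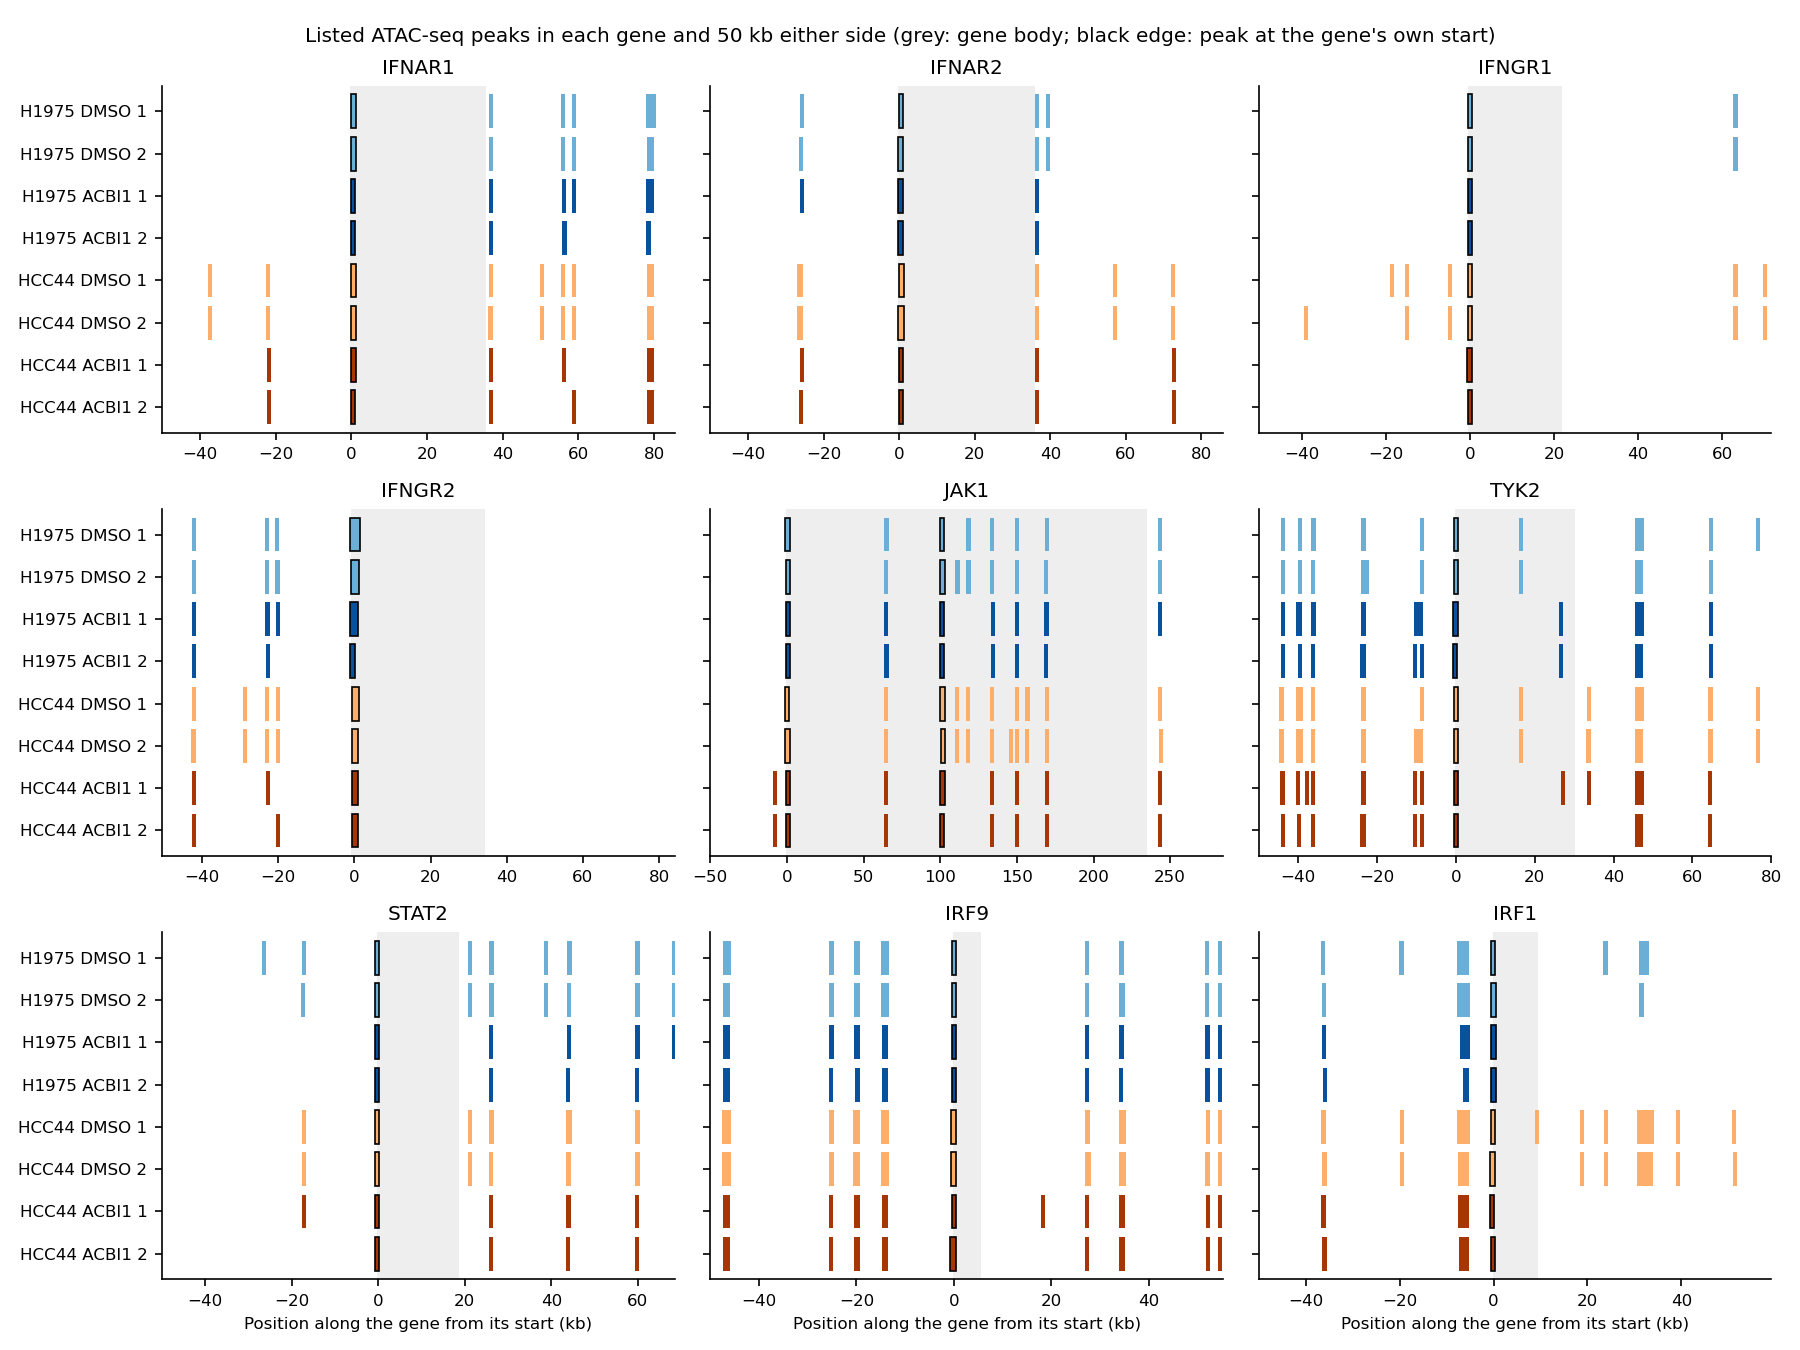
Each panel shows 1 gene, with the position along the gene from its first start in kb on the x axis and the 8 samples as rows; coloured boxes are listed peaks, with narrow peaks drawn at a fixed minimum width, boxes with a black edge are peaks at the gene's own start, and grey is the gene body. The start peaks are present in every row, whereas IFNGR1 and IRF1 in HCC44 have most of their other peaks in the DMSO rows.

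Across the windows of the 9 genes, with each peak counted once, the number of distal peaks with ACBI1 was 0.532 times that with DMSO over both lines. Distal peaks are those more than 1 kb from any coding gene's start, where either end counted as a start for genes with no listed start. They numbered 25 and 22 in the H1975 DMSO samples and 15 and 12 in the ACBI1 samples. In HCC44 they numbered 35 and 35 with DMSO and 20 and 15 with ACBI1. Treated and control samples did not overlap in either line.

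The means were 23.5 ± 2.12 with DMSO and 13.5 ± 2.12 with ACBI1 in H1975 (SD, n = 2 each), and 35 ± 0 and 17.5 ± 3.54 in HCC44 (SD, n = 2 each). The log2 change was −0.81 in H1975 and −1.01 in HCC44, against SDs between replicates of 0.19 and 0.21 on that scale. Over both lines it was −0.91, with p = 0.0556 in a two-sided exact permutation test, the smallest that 36 arrangements can give. Within 1 line the smallest possible p is 0.333, so no test here can pass 0.05. These changes were smaller than those of all distal peaks, and that difference was not tested.

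The direction of this change depended on the length of the lists. When every list was shortened to its 22133 peaks of highest −log10 q, the number in the shortest list, the distal peaks numbered 11, 8, 12 and 12 in H1975 and 12, 15, 15 and 13 in HCC44, DMSO samples first. The log2 change was then 0.36 in H1975 and 0.058 in HCC44, and genome-wide it was −0.17 and −0.22. With equal list lengths, then, the distal peaks around these genes were not fewer with ACBI1, and the decrease above is one of lists that were also shorter.

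**Figure D2:**
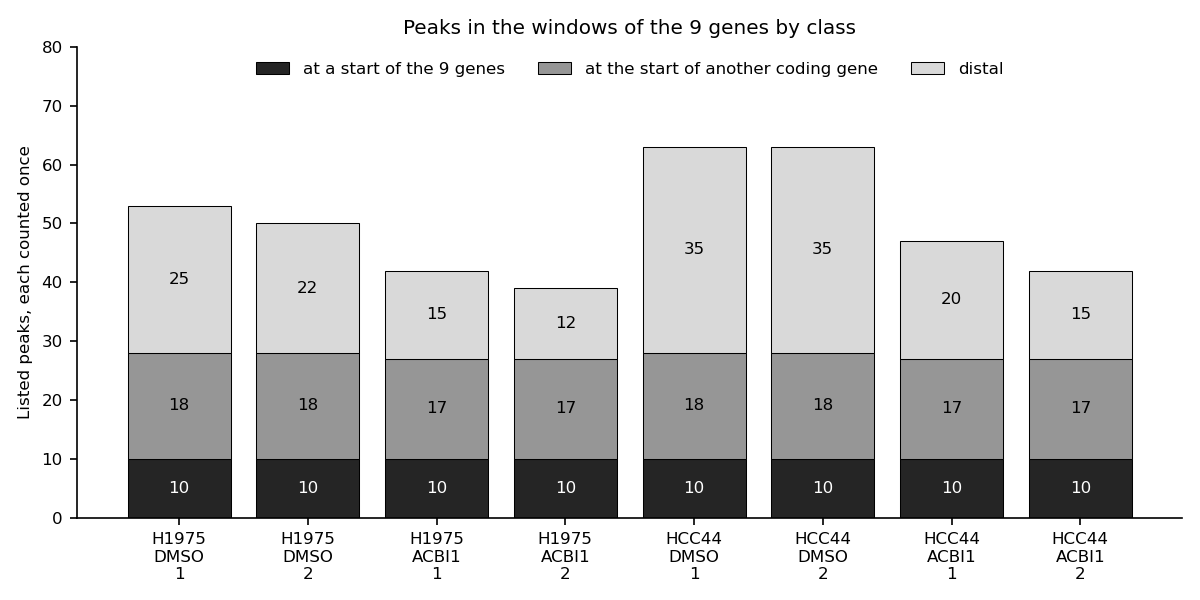
Stacked bars give, for each sample on the x axis, the number of listed peaks in the windows of the 9 genes, each peak counted once, split into those at a start of the 9 genes, at the start of another coding gene and distal. Either end counted as a start for genes with no listed start. The lowest segment is 10 in all 8 bars, the middle one is 17 or 18, and the distal one is 22 to 35 with DMSO and 12 to 20 with ACBI1.

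Peaks at the starts of other coding genes in these windows numbered 18 in every DMSO list and 17 in every ACBI1 list. The same peak was missing in all 4 ACBI1 samples, at chr12:56338649-56339132 over the start of IL23A, a cytokine subunit gene downstream of STAT2. In the DMSO samples it was 386 to 484 bp wide.

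The gene-level counts separated into genes with fewer surrounding peaks after ACBI1 and genes without such a difference. In H1975, 5 of 9 genes had a lower count in each ACBI1 sample than in either DMSO sample: IFNAR2, IFNGR1, JAK1, STAT2 and IRF1, and over all genes with a peak 49.5% did. In HCC44, 7 of 9 did, the same 5 with IFNAR1 and IFNGR2, against 62.4% of all genes. Fewer in both lines were 5 of 9, against 37.5%. More peaks were found for 0 of 9 in either line, against 1.65% in H1975 and 2.03% in HCC44. The median log2 change of (count + 1) over the 9 genes was −0.34 in H1975 and −0.35 in HCC44, and over all genes −0.32 and −0.45. With equal list lengths, counts were lower after ACBI1 for 0 of the 9 genes in H1975 and for 1 in HCC44, IFNGR1, against 13.4% and 15.1% of all genes. Higher counts after ACBI1 were then found for 4 of the 9 in H1975, IFNAR1, IFNGR2, JAK1 and IRF1, against 28.5% of all genes, and for 2 in HCC44, JAK1 and TYK2, against 36%.

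**Figure D3:**
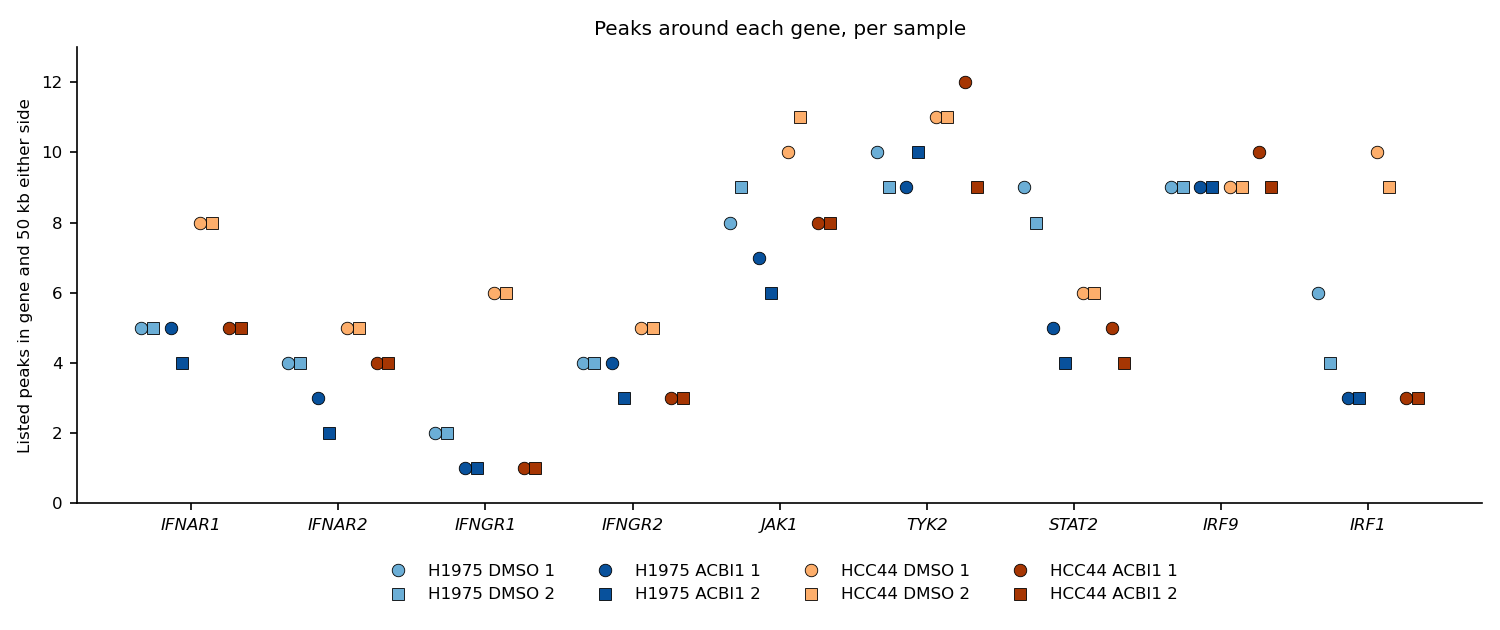
For each gene on the x axis, points give the number of listed peaks in the gene and 50 kb either side in each of the 8 samples, with replicates as circles and squares. IFNGR1 and IRF1 in HCC44 show the widest gap between DMSO and ACBI1 points, and IRF9 stays at 9 or 10 throughout.

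Among the receptors, IFNGR1, the ligand-binding chain of the interferon gamma receptor, had only its start peak listed in each of the 4 ACBI1 samples. It lies at chr6:137197484-137219385 on the minus strand. Its count in H1975 was 2 and 2 with DMSO, then 1 and 1 with ACBI1. In HCC44 it was 6 and 6, then 1 and 1. The 4 treated samples were thus alike, whereas the DMSO samples of the lines differed. The log2 change of (count + 1) over both lines was −1.20, the most negative of the 9 genes (two-sided exact permutation p = 0.0556, the smallest possible).

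In HCC44, 4 distal regions near IFNGR1 were listed in both DMSO samples, and 4 of 4 were lost, that is, in neither ACBI1 list. They lay 4.4 and 14.7 kb upstream of the start and 63.2 and 70.2 kb downstream of it. The nearest of them, at chr6:137223568-137224084, stood at percentiles 65.5 and 48.2 of its lists by the authors' −log10 q, where 100 is the strongest peak. Percentiles from lists of different length describe a peak within its list and show no change between lists. The region at 63.2 kb, chr6:137155850-137156228, lies in IL22RA2, which encodes a soluble interleukin-22 binding protein. It was the only one also listed in H1975 DMSO, at percentiles 4.4 and 3.4 there against 63.2 and 62.6 in HCC44 DMSO, and it was absent from all 4 ACBI1 lists. In lists of equal length the gene had 1 peak in every H1975 sample, and 3 and 2, then 1 and 1, in HCC44.

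IFNAR2 (chr21:33229938-33265664), IFNAR1 (chr21:33324395-33359864) and IFNGR2 (chr21:33402882-33437516) follow one another on the plus strand, with IL10RB, a shared receptor chain for interleukin-10 family cytokines, after IFNAR2. Their windows join into 1 stretch of 307.6 kb, so their counts share peaks. IFNAR2, the main ligand-binding chain for type I interferons, counted 4 and 4 peaks in the H1975 DMSO samples and 3 and 2 in the ACBI1 samples, and 5 and 5 then 4 and 4 in HCC44. IFNAR1, the other chain, had 5 and 5 then 5 and 4 in H1975, and 8 and 8 then 5 and 5 in HCC44. IFNGR2, the signalling chain of the interferon gamma receptor, had 4 and 4 then 4 and 3 in H1975, and 5 and 5 then 3 and 3 in HCC44. IFNAR1 and IFNGR2 thus overlapped between treatments in H1975 and not in HCC44. At equal lengths of the lists IFNAR1 had 3 and 2, then 4 and 4, and IFNGR2 2 and 1, then 3 and 3, in H1975, and both overlapped in HCC44, as did IFNAR2 in both lines.

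The changes over both lines were −0.40 for IFNAR2 (exact permutation p = 0.0556), −0.36 for IFNAR1 (p = 0.167) and −0.37 for IFNGR2 (p = 0.167). The strongest distal region of the stretch in HCC44 was chr21:33379986-33380901, 23 kb upstream of IFNGR2, at percentiles 95 and 93.3 with DMSO. With ACBI1 it was at 42.6 in replicate 1 and not listed in replicate 2. In H1975 it was listed in all 4 samples, at 40.2, 44.9, 44.5 and 50.1. In H1975 the strongest was chr21:33382887-33383567, 20.2 kb upstream, at 72.5 and 50.7 with DMSO, 25.1 in ACBI1 replicate 1 and absent in replicate 2.

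A region just past the end of IFNAR1, chr21:33360500-33361873, was listed in all 8 samples. The strongest distal region nearest to IFNAR2, chr21:33202785-33204412, lay 26.3 kb upstream of it. It was at percentiles 51 and 64.2 in HCC44 with DMSO and at 52.6 and 55.7 with ACBI1. In H1975 it was at 48 and 33.6 with DMSO, 9.9 in ACBI1 replicate 1 and absent in replicate 2.

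JAK1, the kinase that all of these receptors use, kept more of its distal regions than it lost. It spans 234.5 kb at chr1:64833229-65067746 on the minus strand and has 3 listed starts under 2 start peaks. Its count was 8 and 9 in the H1975 DMSO samples, 7 and 6 in the ACBI1 samples, and 10 and 11 then 8 and 8 in HCC44. The groups did not overlap in either line, and the change over both was −0.35 (exact permutation p = 0.0556). At equal lengths they separated in the opposite direction, with 5 and 5, then 6 and 6, in H1975 and 6 and 7, then 8 and 8, in HCC44. Of 6 distal regions listed in both H1975 DMSO samples, 4 were retained, that is, listed in both ACBI1 samples too, and 1 was lost. In HCC44, 5 of 8 were retained and 3 lost.

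The strongest distal region of JAK1 in HCC44, chr1:64897849-64898806, lies inside the gene, 68.2 kb from the nearest start. Its percentiles were 97.9 and 97.3 with DMSO and 81.6 and 71.1 with ACBI1 in HCC44. In H1975 the strongest was chr1:65002380-65003391, at 86.2 and 83.6 with DMSO and 62.7 and 53.5 with ACBI1. Both were listed in all 8 samples. The H1975 one lies within 1 kb of the start of a noncoding gene, LINC01359, and counts as distal because only starts of coding genes were set apart. The intragenic region chr1:64949027-64949666, 17.2 kb from the nearest start, was at 31.7 and 28.6 in H1975 DMSO and 46.6 and 55.8 in HCC44 DMSO, and in none of the 4 ACBI1 lists. HCC44 also gained 1 region, chr1:65075231-65075863, 7.8 kb upstream of JAK1, at 46.6 and 40.4 with ACBI1.

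TYK2, the kinase that pairs with IFNAR1, showed no separation of the counts. It lies at chr19:10350533-10380572 on the minus strand, with 6 other coding genes in its window. Its count was 10 and 9, then 9 and 10 after ACBI1, in H1975, and 11 and 11 then 12 and 9 in HCC44. The region chr19:10388811-10391259 was not split in any DMSO list. In H1975 ACBI1 replicate 2 and both HCC44 ACBI1 samples it was listed as separate peaks, which raised those counts. Over both lines the log2 change was −0.04 (two-sided exact permutation p = 0.833). At equal lengths it had 7 and 7, then 7 and 10, in H1975 and 5 and 7, then 9 and 9, in HCC44. In the full lists, 5 peaks in every sample lay at the starts of other genes, such as CDC37 and PDE4A, or at an end where no start was listed.

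Inside TYK2, the listed regions differed between treatments although the counts overlapped. The region chr19:10363762-10364298, 16.5 kb from the start, was at percentiles 85.3 and 67.8 in H1975 DMSO and 70.9 and 75.8 in HCC44 DMSO, and in none of the 4 ACBI1 lists. The region chr19:10352763-10354058, also inside the gene, was listed in both H1975 ACBI1 samples, at 18.7 and 19.8, in 1 of 2 HCC44 ACBI1 samples and in no DMSO sample. The strongest distal region in H1975, chr19:10424102-10425410 in PDE4A, was retained in both lines. TYK2 had the most peaks of the 9 genes, and the genes elsewhere whose 8 counts were nearest to its own were C1orf159 and PPM1N, each with a summed difference of 3 peaks, and CASC3 and NUP210L, tied at 4. These are a description over 8 samples.

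Among the transcription factors, IRF1 had the most negative change. It lies at chr5:132481609-132490773 on the minus strand, and no other coding gene lies in its window. Its count was 6 and 4, then 3 and 3 after ACBI1, in H1975, and 10 and 9 then 3 and 3 in HCC44. All 4 treated samples therefore held 3, below every DMSO sample, but not with equal list lengths, where the counts were 2 and 2, then 3 and 3, in H1975 and 3 and 2, then 3 and 3, in HCC44. The log2 change was −0.98 (two-sided exact permutation p = 0.0556, the smallest possible).

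In HCC44, 6 of the 8 distal regions around IRF1 in both DMSO samples were lost, at 18.9, 24, 32.3, 39.3 and 51.2 kb downstream of the start and 19.5 kb upstream. The strongest of these was the farthest, chr5:132439071-132439991, at percentiles 75.7 and 67.5. The widest was chr5:132456695-132460239, at 49.8 and 48.2, with widths of 3545 and 3455 bp. That wide region was also listed in both H1975 DMSO samples, at 30.2 and 22.7 with widths of 2004 and 1151 bp, and in none of the 4 ACBI1 lists. The 2 distal regions that all 8 samples held were both upstream. One was chr5:132495820-132498451, 6.4 kb from the start, at 58.9 to 73.8 in H1975 and 47.6 to 66.3 in HCC44. The other was chr5:132526179-132527433, 36 kb from the start, at 22.1 to 34.7 and 24.9 to 47.1.

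STAT2 was the gene with fewer peaks in HCC44 than in H1975 with DMSO. It lies at chr12:56341597-56360107 on the minus strand. Its count was 9 and 8, then 5 and 4 after ACBI1, in H1975, and 6 and 6 then 5 and 4 in HCC44. The change was −0.57 (exact permutation p = 0.0556), and with equal list lengths the treatments overlapped in both lines. In H1975 it had 3 distal regions in both DMSO samples, of which 2 were lost, chr12:56321105-56321420 and chr12:56376970-56377559. Its strongest, chr12:56291496-56292125 in CS, was at 78.7 and 64.1 with DMSO, 26.4 in ACBI1 replicate 1 and absent in replicate 2. In HCC44 neither this region nor chr12:56321105-56321420 was listed in any sample, and the region chr12:56376970-56377559 was at 34.4 and 23 with DMSO and at 11.4 in 1 ACBI1 sample.

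IRF9, the DNA-binding partner of STAT2, had a window filled with other genes' starts. It lies at chr14:24161265-24166565 on the plus strand with 14 other coding genes around it. It had 9 peaks in every sample but HCC44 ACBI1 replicate 1, which had 10, and the change was 0.03 (two-sided exact permutation p = 1). In each sample 8 of these peaks lay at the starts of other genes, or at an end where no start was listed. Among these genes were PSME1 and PSME2, which encode proteasome activator subunits. No distal region was listed in both DMSO samples of either line.

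The fates of the distal regions were counted over all 9 windows. In H1975, 21 distal regions had a peak in both DMSO samples, of which 7 (33.3%, 95% exact Clopper-Pearson interval 14.6 to 57.0) were lost after ACBI1 and 10 (47.6%) retained. Over the genome 51.2% were lost and 34.3% retained. In HCC44, 17 of 33 (51.5%, interval 33.5 to 69.2) were lost and 12 (36.4%) retained, against 63.9% and 28.7%. Each line gained 1 region, against 1.63% of all distal regions in H1975 and 2.81% in HCC44. Both genome-wide shares of lost regions lie inside these intervals, which cover counting error only. The intervals treat regions as independent, although regions of 1 window are neighbours read in the same samples. No difference from the genome-wide shares was tested. Without H1975 ACBI1 replicate 1, the share lost in H1975 was 52.4%. In lists of equal length 1 of 8 regions (12.5%) was lost in H1975 and 3 of 10 (30.0%) in HCC44, against 37.6% and 59.6% genome-wide.

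Retained regions tended to be those of higher rank and greater width in DMSO. Fate was read from ACBI1 lists that were shorter, and weaker peaks are the first to leave a shorter list. Such a difference can thus follow from list length alone, and it was not tested. Genome-wide medians are not given here. The median percentile by −log10 q was 55.6 for retained and 30.2 for lost regions in H1975, and 62.5 and 40.7 in HCC44. In width the medians were 760.8 bp for retained and 279.5 bp for lost regions in H1975, with 1118 bp and 542 bp in HCC44. The ranges overlapped, so rank and fate did not map one to one, as the TYK2 region lost in both lines shows.

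Of 18 distal regions listed in both DMSO samples of both lines, 4 were lost in both and 9 were retained in both. The 4 are those given above near IFNGR1, IRF1, JAK1 and TYK2. HCC44 DMSO had 11 regions with no H1975 DMSO peak, or 33.3% of its 33, against 36.8% genome-wide. Of these 11, 9 were lost with ACBI1 and 1 was retained; 3 lay nearest to IFNGR1 and 3 to IRF1. Genome-wide shares of these fates among shared or HCC44-only regions are not given here. The counts therefore describe these windows only.

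The lines were then compared with each other. With DMSO, 7 of 9 genes had more peaks in both HCC44 than in both H1975 samples, against 36.7% of all genes, and 1, STAT2, had fewer, against 17.0%. With equal list lengths 2 had more, IFNGR1 and JAK1, against 18.3%, and STAT2 had fewer, against 25.3%. With ACBI1, 2 genes had more, IFNAR2 and JAK1, against 17.7%, and 0 had fewer, against 16.4%. With equal list lengths the same 2 had more, against 18.8%, and 0 had fewer, against 20.5%. The log2 difference in distal peaks, HCC44 minus H1975, was 0.58 with DMSO and 0.37 with ACBI1, where the ranges were 15 to 20 and 12 to 15. Over both treatments it was 0.47 (two-sided exact permutation p = 0.111). With only peaks of −log10 q of at least 20, the difference with ACBI1 was 0.013. The HCC44 DMSO lists were also longer than those of H1975 (49945 and 50347 against 41027 and 43525 peaks). With equal list lengths the difference was 0.52 with DMSO, 0.22 with ACBI1 and 0.37 over both treatments (exact permutation p = 0.0556, the smallest possible).

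Although all start peaks were kept, their ranks differed between genes. The percentile by −log10 q was taken among the 8979 genes with a start peak in all 8 lists, so that each list ranked the same genes. STAT2 stood highest in H1975 with DMSO, at 91.8 and 94.3, and was at 91.7 and 92.7 with ACBI1, at 84.8 and 80.6 in HCC44 DMSO and at 91.4 and 83.8 in HCC44 ACBI1. IFNGR2 stood lowest, at 1.3 and 0.9, then 0.7 and 1, in H1975 and at 9.1 and 15.7, then 5.6 and 4.3, in HCC44. Higher rank did not go with greater width. The lowest-ranked start peak, that of IFNGR2, was the widest by median, at 1789.5 bp. The highest-ranked, that of STAT2, was the narrowest, at 864 bp. With a minimum −log10 q of 20, the IFNGR2 start peak was listed in 3 of 8 samples, while those of the other genes were listed in all 8.

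IFNGR1 was the only gene of the 9 whose start peak ranked lower by −log10 q with ACBI1 in both lines, against 13.1% of the 8979 genes. It was at 86.8 and 77.5 in H1975 DMSO and 43.6 and 59.4 with ACBI1. In HCC44 it was at 69.7 and 78.1 and then 49.5 and 61.2. By the authors' fold enrichment it ranked lower in H1975, at 93 and 89.7 then 68.6 and 85.3, but higher in HCC44, at 32.7 and 38.8 then 56.5 and 69.3. The direction in HCC44 thus turned with the column used.

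The start peak of IRF9 ranked lower by −log10 q in H1975, from 66.4 and 53.2 to 26.5 and 24.7. In HCC44 it was at 29.9 and 45.3 with DMSO and at 30.8 and 15.6 with ACBI1, which overlap. By fold enrichment it ranked lower in both lines, as did 13.7% of the 8979 genes. It went from 67.4 and 43.2 to 34.6 and 21.3 in H1975, and from 35.9 and 42.6 to 18 and 9.6 in HCC44.

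By −log10 q the start peaks of IFNAR1 and TYK2 ranked higher with ACBI1 in H1975 and lower in HCC44. By fold enrichment IFNAR1 overlapped between treatments in both lines, and TYK2 overlapped in H1975 and ranked lower in HCC44. IFNAR1 was at 65.7 and 55.8, then 69.2 and 69.9, in H1975, and at 91 and 92.2, then 86.8 and 89.8, in HCC44. TYK2 was at 85 and 78.9, then 86.4 and 92.3, in H1975, and at 70.4 and 58.3, then 53 and 58.3, in HCC44. In H1975, 2 genes ranked lower, IFNGR1 and IRF9, against 27.1%, and 2 higher, IFNAR1 and TYK2, against 27.5%. In HCC44, 4 ranked lower, IFNAR1, IFNGR1, IFNGR2 and TYK2, against 27.6%, and 0 higher, against 29.5%. By −log10 q the start peaks of IFNAR2, JAK1, STAT2 and IRF1 overlapped between treatments in both lines, whereas by fold enrichment IFNAR2 ranked higher and JAK1 lower with ACBI1 in HCC44. By fold enrichment in HCC44, 3 genes ranked lower, JAK1, TYK2 and IRF9, against 33.1%, and 2 higher, IFNAR2 and IFNGR1, against 32.0%. In H1975, 2 ranked lower by fold enrichment, IFNGR1 and IRF9, against 25.4%, and 0 higher, against 23.3%.

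**Figure D4:**
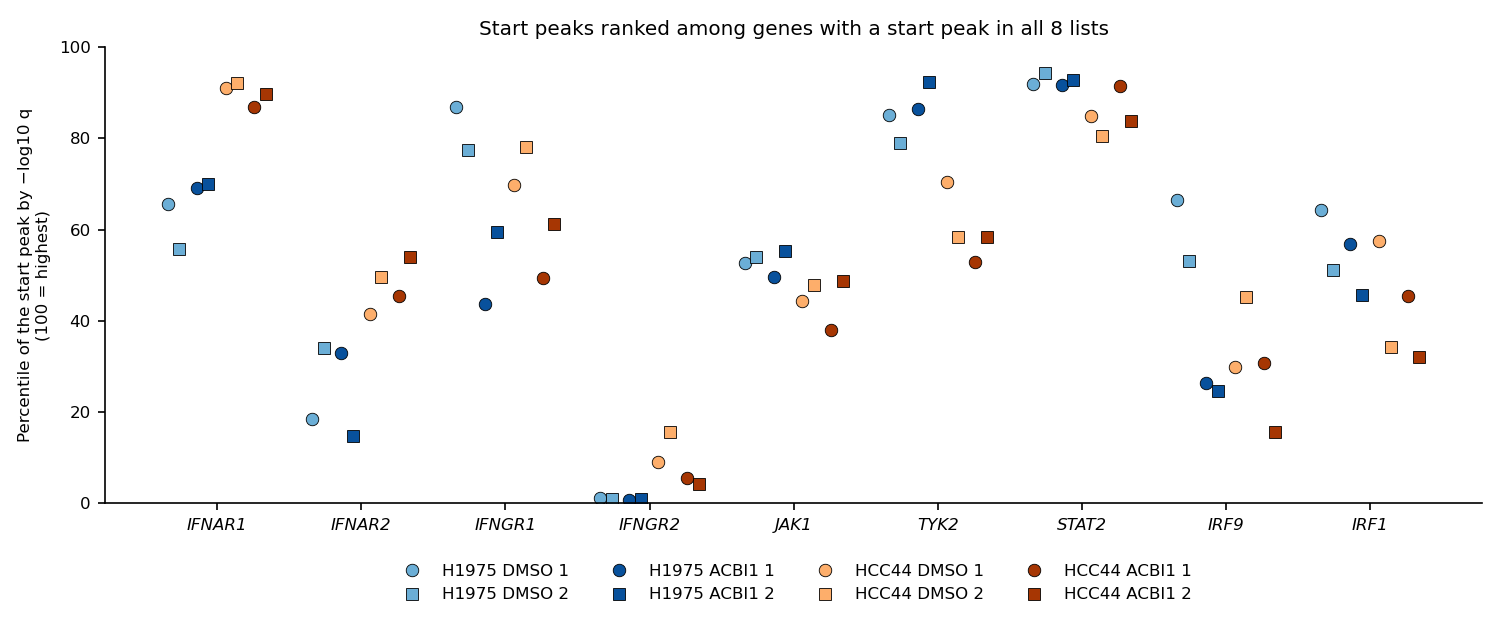
For each gene on the x axis, points give the percentile by −log10 q of its start peak in each of the 8 samples, among the genes with a start peak in all 8 lists, with 100 the highest. STAT2 lies above 80 in every sample and IFNGR2 below 16, and the ACBI1 points of IFNGR1 lie below the DMSO points in both lines.

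The rest of the pathway was read from 13 further genes, comprising another receptor chain and IL10RB, other JAK and STAT genes and negative regulators. In H1975, 6 of 13 had fewer surrounding peaks after ACBI1, against 49.5% of all genes, and in HCC44 9 of 13, against 62.4%. In both lines 6 did, against 37.5%, namely IFNLR1, IL10RB, STAT3, SOCS3, PTPN2 and IRF2. The window of IL10RB overlaps those of IFNAR1 and IFNAR2. Over the 13 genes the median log2 changes of (count + 1) were −0.29 and −0.51. SOCS3, which encodes an inhibitor of JAK signalling, had 11 and 11 peaks, then 6 and 5 after ACBI1, in H1975, and 14 and 13 then 7 and 7 in HCC44. STAT3 had 8 and 9 then 7 and 5 in H1975, and 14 and 13 then 8 and 8 in HCC44. JAK2, USP18, PTPN6 and PIAS1 had fewer in neither line. USP18, which encodes a negative regulator at IFNAR2, had 1 and 1 peaks, then 2 and 2 after ACBI1, in H1975, and 3 in every HCC44 sample. IFNLR1, a chain of the type III interferon receptor, had 9 and 9 then 5 and 4 in H1975 and 9 and 9 then 6 and 6 in HCC44. All counts of the 13 genes come from the full lists, which were shorter with ACBI1. Their counts with equal list lengths are not given here.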

How the data were processed

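Accessible chromatin was measured by ATAC-seq in 8 samples. The authors deposited peaks called on each sample alone, as 8 lists in the 9-column broadPeak layout without a header. The authors' fold enrichment of each peak is a ratio over the caller's background, and their q-values are deposited as −log10 values. Per the submitters' processing notes BWA was used and the build was hg38. The peak caller, its filters and the joining distance are not given in the sources used here. The lowest −log10 q was 10.0 to 10.2 in all lists and the smallest gap between peaks 657 to 1153 bp, so joining differed between lists.

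Gene positions came from a RefSeq table of GRCh38.p14, and starts from RefSeq promoters. For IFNAR2, which is not in the promoter table, the lower end of the gene was used. A start peak lay within 1 kb of a start. To separate distal peaks from those at starts, either end of a gene counted as a start where none was listed. Peaks that shared 1 bp were merged within each line to count fates and over all 8 lists for the regions printed, so a printed region can be wider than a sample's peak; both gave the same counts of fates. Lost regions were listed in both DMSO samples and no ACBI1 sample, gained regions the other way round, and retained regions in all 4. Numbers of peaks were compared on the log2 scale, with 1 added for single genes, by an exact permutation test, two-sided, within lines. Fold and −log10 q were used only to rank and filter within a list.

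The 9 genes and all lists were chosen with earlier results of these data known. All 9 genes are named with their counts, start peaks, the strongest distal region in each line's DMSO samples and the distal regions lost in both lines; other pathway genes are named where called in both lines or in neither, and other regions were chosen after their values were seen. A marker and a pathway gene of these lists are not reported here. Ranking among genes with a start peak in all 8 lists was added after seeing the data. Alternatives comprised a minimum −log10 q of 20, equal list lengths, windows of 25 or 100 kb, starts within 500 bp or 2 kb, joined peaks, a replicate block and each replicate left out in turn. No genome sequence was used, so sequences of distal regions are not shown. The functions were tested on simulated data. Python 3.11.15, numpy 2.4.6, scipy 1.17.1 and matplotlib 3.10.9 were used.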

Additional observations from a re-analysis of the deposited data

Results flagged for a closer look

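The start peaks of 3 genes moved in opposite directions with ACBI1 in the 2 lines, with both samples of each line on the same side, when ranked among the 8979 genes with a start peak in all 8 lists. For IFNAR1 the mean percentile by −log10 q changed by 8.8 points in H1975 and by −3.3 in HCC44, a difference between the lines of −12.1. For TYK2 it changed by 7.4 and −8.7, a difference of −16.1, although HCC44 DMSO replicate 2 and ACBI1 replicate 2 were both at 58.3 after rounding. For IFNGR1 the percentile by the authors' fold enrichment changed by −14.4 in H1975 and by 27.1 in HCC44, a difference of 41.5. None of these differences was tested. Both columns were looked at for each of the 9 genes, and the share of the 8979 genes with such opposite moves was not counted. In a given line and direction, 23.3% to 33.1% of the 8979 genes were called by these columns.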

How the results depend on the processing

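With lists of equal length (22133 peaks), the log2 change in distal peaks was 0.36 in H1975, 0.058 in HCC44 and 0.21 over both lines (exact permutation p = 0.278), the opposite direction to the main values. Then 12.5% of regions were lost in H1975 and 30% in HCC44, and 0 and 1 genes had fewer peaks. These lists hold fewer DMSO peaks by construction. With a minimum −log10 q of 20, the change in HCC44 was −1.44 and the difference between the lines with ACBI1 was 0.013. In each line 8 of 9 genes then had a start peak in all samples. IFNGR2 had none in any H1975 sample, DMSO included, and lacked it in HCC44 ACBI1 replicate 2. As a mean over genes of the log2 change of (count + 1), the change was −0.35 in H1975, −0.59 in HCC44 and −0.47 over both lines. The other 71 of 83 values under settings that kept all replicates had the main value's direction. Those judged without a test also stayed near the main value. Those judged by the exact permutation test could not cross its threshold of 0.05. The smallest possible p was 0.0556, or 0.125 with the replicate block, so staying on the same side of the threshold was fixed in advance. The 71 values include windows of 25 or 100 kb, starts within 500 bp or 2 kb and joined peaks. At a minimum −log10 q of 20 the change over both lines was −1.14.

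Leaving out 1 replicate gave −0.97 to −0.64 in H1975, −1.22 to −0.81 in HCC44 and −1.01 to −0.81 over both lines. For HCC44 minus H1975 it gave 0.49 to 0.67 with DMSO, 0.16 to 0.58 with ACBI1 and 0.37 to 0.58 over both. It gave 33.3% to 52.4% lost in H1975 and 51.5% to 60.6% in HCC44, 5 to 7 and 7 to 8 genes with fewer peaks, and 9 to 9 start peaks kept in each line.

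With the replicate number as a block, the change over both lines stayed −0.91 and the line difference 0.47 (exact permutation p = 0.125 for each, the smallest that 16 arrangements can give). The numbers do not pair the samples: correlations of replicate differences between groups over 20037 genes ran from −0.0043 to 0.078. The depth in reads is unknown, so peaks near the listing threshold cannot be told from missing ones.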
